A study of Rattus norvegicus with 151 samples.

Results

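The genes described here are 33 genes of fatty acid oxidation, the breakdown of fatty acids to acetyl-CoA, in rat liver and kidney. They were listed by name, with earlier results of these data known, and no threshold on their values chose them. Of the 33, 9 code for proteins of the peroxisome, 14 for proteins of the mitochondrion, 4 for enzymes found in several compartments, and 6 for cytosolic, regulatory or secreted proteins of the same programme. A probe set of their own was present for 31 of the 33 on the Affymetrix rat array, among 14218 genes so named. Acaa1a and Acaa1b, the peroxisomal thiolases, shared a probe set with another gene and were not analysed here. Where a gene had several probe sets, the one with the brightest mean in the tissue was used.

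Male Harlan Sprague-Dawley rats aged 6 to 8 weeks were dosed by oral gavage on 5 consecutive days with MCHM (4-methylcyclohexanemethanol), crude MCHM (the technical mixture) or PPH (propylene glycol phenyl ether), chemicals of the West Virginia spill. Each chemical had its own corn oil vehicle group, and no undosed group was used here. The doses were 0.1, 1, 10 and 100 mg/kg followed by 300 and 500 mg/kg in the MCHM and crude MCHM sets, and for PPH they were 1, 10, 100, 500 and 1000 mg/kg. Liver and kidney RNA was hybridised to 151 arrays in 40 groups of 2 to 5, of which 81 liver and 69 kidney arrays were used. The labels name each array by a replicate number and do not say that replicates are separate rats, so p-values measure the spread between these arrays, which may be partly technical.

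Values are the deposited log2 intensities, in which 1 unit is a doubling. A gene was tested where it lay above a low-signal threshold, 4.69 in liver and 4.66 in kidney, on at least 3 arrays of the fit. Changes are differences of group means on the log2 scale against the same chemical's vehicle arrays, with the standard error (SE) of limma's moderated fit. All doses of a chemical share its vehicle arrays. A gene is called where its p, adjusted by Benjamini-Hochberg over all genes tested in that fit, is under 0.05. The words rose and fell are kept for called genes. Besides each dose, the mean of all doses and a dose trend were tested, the trend being the slope per step of dose rank, where vehicle has rank 0. In these whole-tissue extracts, fewer cells of a type and less RNA per cell cannot be told apart.

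Fatty acids enter oxidation as CoA esters. Long chains reach the mitochondrial matrix as carnitine esters through CPT1, the carrier SLC25A20 and CPT2, and are then shortened by the acyl-CoA dehydrogenases and the trifunctional protein; peroxisomes shorten the chains that mitochondria handle poorly, with the bifunctional enzyme EHHADH and a thiolase. Unsaturated fatty acids also need enoyl-CoA isomerases and dienoyl-CoA reductases, which lie in both organelles. In liver and in the proximal tubule of the kidney the nuclear receptor PPAR-alpha switches many of these genes on, and in rodents its agonists enlarge the peroxisomal compartment.

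Promoter sequence was at hand for 27 of the 33 genes, as RefSeq windows from 250 bases before to 50 bases after the transcription start on the GRCr8 assembly. Shown are the 120 bases before the start of Ehhadh, Eci1, Mecr and Decr2, because these 4 are the members called at a dose in liver, each with at least 2 of the 3 chemicals. Ehhadh lies on the plus strand at chr11:92746289-92746408, Eci1 on the plus strand at chr10:13961130-13961249, Mecr on the plus strand at chr5:149313674-149313793 and Decr2 on the minus strand at chr10:15617437-15617556. Capitals mark AGGTCA, the half-site of nuclear receptors, read on either strand.
Ehhadh: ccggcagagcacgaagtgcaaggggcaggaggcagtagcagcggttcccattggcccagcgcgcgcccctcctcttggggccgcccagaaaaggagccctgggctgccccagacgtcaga
Eci1: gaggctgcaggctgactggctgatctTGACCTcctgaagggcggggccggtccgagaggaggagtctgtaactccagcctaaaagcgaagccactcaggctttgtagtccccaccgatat
Mecr: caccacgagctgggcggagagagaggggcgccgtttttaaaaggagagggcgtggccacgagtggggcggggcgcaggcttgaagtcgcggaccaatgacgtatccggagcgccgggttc
Decr2: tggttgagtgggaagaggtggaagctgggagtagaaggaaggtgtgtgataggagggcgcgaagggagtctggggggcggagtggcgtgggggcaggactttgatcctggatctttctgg
Of the 4, Eci1 was the 1 with the half-site in its 300-base window. It stood in the windows of 5 of the 27 members (18.5%) and in 16.2% of 33469 rat promoter windows.

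The full element that PPAR-alpha binds with its partner RXR is a direct repeat of the half-site with 1 base between, that is AGGTCA, any base N, and AGGTCA. Read on both strands and allowing 1 letter to differ, it was found in 2 of the 27 windows (7.41%), those of Acadvl and Acot4, and in 0.439% of all windows. With 2 letters allowed it stood in 4 windows (14.8%), with Crat and Slc25a20 added, against 3.77% of all. With 3 letters allowed the shares were 33.3% and 24.9%. The windows of Hadha and Hadhb overlap, and the same bases were counted as the match of each. The 50 bases before the start of Acadvl (minus strand, chr10:55236706-55236755) and Acot4 (plus strand, chr6:109399804-109399853) are shown with the match in capitals, because they are the closest matches among the members.
Acadvl: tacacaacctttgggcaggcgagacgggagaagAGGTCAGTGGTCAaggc
Acot4: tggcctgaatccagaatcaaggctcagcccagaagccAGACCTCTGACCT
Neither gene was called against vehicle in any comparison of dose in either tissue. In the windows of Ehhadh and Mecr the closest run differed by 3 letters, and in those of Eci1 and Decr2 by 4. A match is a run of letters in a window and says nothing of binding.

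Marker genes matched the tissue labels. All 7 hepatocyte markers lay above the threshold in liver, with a summed level of 16.42 to 16.63, and proximal tubule markers summed to between 14.19 and 14.94 in kidney. 1 kidney array, MCHM 0.1 mg/kg replicate 13, has its values shifted by 1 row against the others and was left out. A pair of MCHM kidneys stood apart, replicate 36 at 300 mg/kg and replicate 42 at 500 mg/kg, with a mean level of fat cell markers of 8.91 and 8.16 against 5.46 to 6.20 in the MCHM vehicle kidneys. The hepatocyte markers, at 6.90 to 8.83 in the PPH kidneys, reached 11.75 in a crude MCHM kidney at 1 mg/kg and 10.82 in an MCHM vehicle kidney.

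The design asks which transcripts each chemical changes against corn oil, and at which dose. At the highest dose of each chemical 3 or 4 members rose in liver: Eci1 and Mecr with all 3 chemicals, Ehhadh with MCHM and crude MCHM, and Decr2 with crude MCHM and PPH. At 500 mg/kg MCHM 3 of 30 members tested rose, and 0.512% of all 11335 genes tested were called, 0.291% as risen. With 500 mg/kg crude MCHM it was 4 of 30 members (0.675% of all genes called, 0.517% risen), and with 1000 mg/kg PPH 3 of 30 (1.75% called, 1.22% risen). No member fell in liver at any dose, in the mean of doses or in the trend. The other members were not called, and the median change of the 30 was 0.01, 0.12 and 0.04 for MCHM, crude MCHM and PPH, against 0.01, 0.01 and 0.03 over all genes tested.

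Ehhadh, the peroxisomal bifunctional enzyme that hydrates and dehydrogenates the shortened chain, was the leading peroxisomal member. In the MCHM vehicle livers it lay at 10.92, 11.33, 11.14, 11.04 and 11.14, and at 500 mg/kg at 11.60, 11.99, 11.96 and 11.48. Every treated liver was above every vehicle liver. The change was 0.64 ± 0.13 (SE), a 1.56-fold rise (limma adjusted p = 0.0177). At 300 mg/kg, with arrays from 11.11 to 11.51, the groups overlapped and the change was 0.24 (adjusted p = 0.662). With crude MCHM the vehicle livers lay at 11.25, 10.76, 10.72 and 10.68 and those at 500 mg/kg at 11.55, 11.51, 11.52 and 11.81. These groups did not overlap either, although the vehicle liver at 11.25 (replicate Crude_MCHM-104) stood well above the other 3. The change was 0.74 ± 0.13 (SE), or 1.68-fold (limma adjusted p = 0.00499). With PPH the 5 vehicle livers ran from 10.68 to 11.12 and the 4 at 1000 mg/kg from 11.17 to 11.79, again apart. That change of 0.52 ± 0.14 (SE) just missed the threshold (limma adjusted p = 0.0516).

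Decr2, the peroxisomal dienoyl-CoA reductase, is needed for chains with double bonds. Its PPH vehicle livers lay at 10.11, 10.44, 10.21, 10.20 and 10.31, and those at 1000 mg/kg at 10.63, 10.79, 10.78 and 10.74. The groups were apart, with a change of 0.48 ± 0.08 (SE), 1.40-fold (limma adjusted p = 0.0024). Group means at 1, 10, 100 and 500 mg/kg were 10.45, 10.41, 10.50 and 10.53, all above the vehicle mean of 10.25, and Decr2 rose in the mean of doses (0.27, adjusted p = 0.031, where 1.22% of all genes were called) and in the trend (0.08 per step, adjusted p = 0.00599, 1.32% called). Its crude MCHM arrays at 500 mg/kg lay at 10.73, 10.59, 10.73 and 10.72 against 10.56, 10.17, 10.09 and 10.21 in vehicle. Each treated liver was above each vehicle liver, and the change was 0.43 ± 0.08 (SE; limma adjusted p = 0.0118). With 500 mg/kg MCHM the groups overlapped (10.35 to 10.62 against 10.12 to 10.56), and the change of 0.12 was not called.

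The other peroxisomal members were not called in liver. Crot, which exports shortened chains as carnitine esters, was lower on average at the top dose of each chemical, by -0.43, -0.33 and -0.19 for MCHM, crude MCHM and PPH, with adjusted p of 0.126, 0.341 and 0.505. Its MCHM arrays at 500 mg/kg, 10.51 to 11.11, overlapped those of vehicle, 10.98 to 11.35. Pecr, the trans-2-enoyl-CoA reductase, moved by 0.09 to 0.16, and Pex11a, a membrane protein of peroxisome division, by -0.08, 0.06 and 0.37. The acyl-CoA thioesterases Acot3 and Acot4, which release free fatty acid from its CoA ester, moved by -0.38 to 0.20.

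Eci1, the mitochondrial isomerase that moves a double bond into the position the pathway accepts, had the largest called change of any member. Its crude MCHM vehicle livers lay at 11.34, 10.87, 11.07 and 10.99, and those at 500 mg/kg at 11.92, 12.05, 11.86 and 11.92. The groups were apart and the change was 0.87 ± 0.11 (SE), a 1.83-fold rise (limma adjusted p = 0.000115). With MCHM the vehicle livers were tight, from 11.55 to 11.64, and the livers at 500 mg/kg lay at 12.07, 12.20, 12.59 and 12.08. That change was 0.64 ± 0.15 (SE; limma adjusted p = 0.0488). With PPH the arrays at 1000 mg/kg, 11.57 to 11.79, all lay above the vehicle arrays, 10.87 to 11.51, and the change was 0.50 ± 0.12 (SE; limma adjusted p = 0.0385). A further probe set of Eci1 lay below the low-signal threshold, at 4.39, 4.00 and 4.09 in the 3 vehicle groups, and moved the other way, by -0.50, -0.39 and -0.16. When both probe sets were averaged, the changes were 0.07, 0.24 and 0.17 and none was called. The trends of Eci1 with MCHM and crude MCHM, given below, also became 0.02 per step each with both probe sets averaged, and were not called (limma adjusted p = 0.465 and 0.343).

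Mecr is the enoyl reductase of mitochondrial fatty acid synthesis, the route that makes the precursor of lipoic acid, and so differs from the enzymes of breakdown. With PPH its vehicle livers lay at 7.65, 7.83, 7.83, 7.89 and 7.79, and those at 1000 mg/kg at 8.39, 8.23, 8.45 and 8.22. The change was 0.52 ± 0.09 (SE), 1.44-fold (limma adjusted p = 0.00463). The means at 1, 10, 100 and 500 mg/kg were 8.10, 8.09, 8.11 and 8.13, close to each other and above the vehicle mean of 7.80, and Mecr rose in the mean of PPH doses by 0.35 ± 0.07 (SE; limma adjusted p = 0.0247). No single dose from 1 to 500 mg/kg was called for it. All PPH doses share 1 vehicle group, whose Mecr mean was below those of the MCHM (8.00) and crude MCHM (7.90) vehicle livers. The part of that vehicle level in the PPH changes was not tested. In the MCHM livers at 500 mg/kg it lay at 8.29, 8.44, 8.55 and 8.24 against 7.93 to 8.05 in vehicle (change 0.38, limma adjusted p = 0.0333), and with 500 mg/kg crude MCHM at 8.25 to 8.41 against 7.61 to 8.19 (change 0.42, limma adjusted p = 0.0334). Neither pair of groups overlapped.

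**Figure D1:**
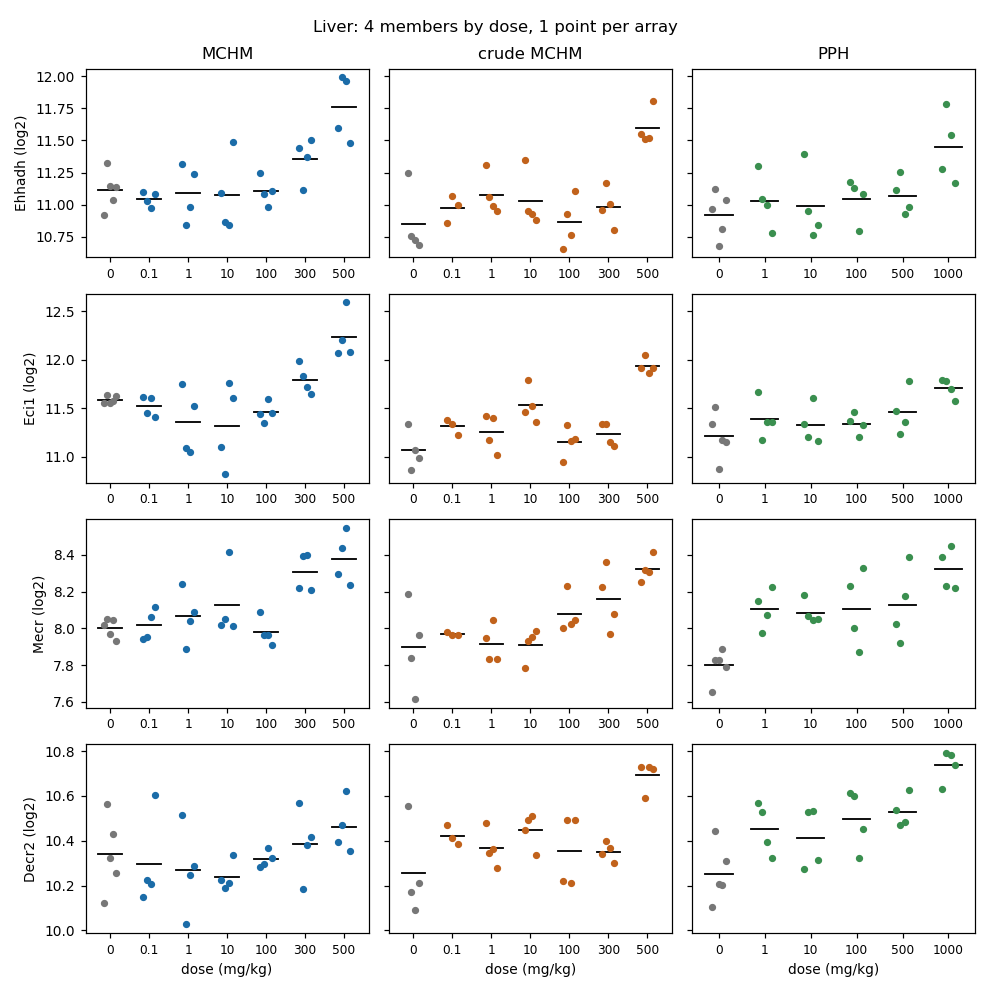
Log2 intensity (y axis) of Ehhadh, Eci1, Mecr and Decr2 in liver by dose in mg/kg (x axis) for MCHM, crude MCHM and PPH; points are arrays and bars group means. At the highest dose of each chemical all arrays of Ehhadh, Eci1 and Mecr lie above the vehicle arrays, and Decr2 at 500 mg/kg MCHM (10.35 to 10.62) overlaps its vehicle arrays (10.12 to 10.56).

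The enzymes of the main mitochondrial spiral were not called in liver. The dehydrogenases Acadm, Acadl and Acadvl, for medium, long and very long chains, changed by -0.10 to 0.21 at the top doses, and the trifunctional protein subunits Hadha and Hadhb by -0.11 to 0.11. The thiolase Acaa2, the carrier Slc25a20, the inner transferase Cpt2 and the muscle form of the outer transferase, Cpt1b, changed by -0.06 to 0.13. The mitochondrial dienoyl-CoA reductase Decr1 changed by 0.06, 0.13 and 0.25 and the thioesterase Acot2 by 0.21, 0.35 and -0.03. None of these was called. Cpt1a, the liver form of the outer transferase and the step that limits entry, was at -0.54 with 500 mg/kg MCHM, where the arrays, 9.79 to 10.41, overlapped those of vehicle, 10.29 to 11.15 (adjusted p = 0.167).

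Of the enzymes of several compartments, the dienoyl-CoA isomerase Ech1 changed by 0.07, 0.25 and 0.35 at the top doses, the carnitine acetyltransferase Crat by -0.02, 0.11 and 0.38, the isomerase Eci2 by 0.01 to 0.03 and the fatty aldehyde dehydrogenase Aldh3a2 by -0.05 to 0.14. None of the 4 was called. The regulatory and secreted members spread more widely between arrays. Angptl4, a secreted inhibitor of lipoprotein lipase, lay at 10.21 to 10.98 in MCHM vehicle livers and at 9.07, 9.92, 10.42 and 8.88 at 500 mg/kg, a change of -0.94 ± 0.29 (SE) that was not called (limma adjusted p = 0.133). Fgf21, the fasting hormone of the liver, ranged from 7.89 to 10.55 within the PPH vehicle group alone. Ppara, the receptor itself, lay at 6.73, 4.51, 4.55 and 4.85 in the crude MCHM vehicle livers, 2 of them under the threshold of 4.69. Pdk4, the kinase that shuts pyruvate out of oxidation, changed by 0.03, -0.45 and -0.27, and the pantetheinase Vnn1 by 0.04, -0.12 and 0.24. Acot1, the cytosolic thioesterase, did not pass the low-signal filter in liver (2.97 to 6.35 over all livers).

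Cell type markers moved beside some of these liver changes. At 1000 mg/kg PPH the hepatocyte list summed to between 16.46 and 16.52 against 16.56 and 16.63 in vehicle, without overlap. The brown fat list (Ucp1 and Cidea), at 8.22 to 8.88 against 7.01 to 7.87, did not overlap either. Over all livers Ucp1 averaged 4.72, close to the low-signal threshold, and Cidea 7.51, so this sum rested mainly on Cidea. The fat cell list at that dose, at 10.06 to 10.31 against 10.10 to 10.34 in vehicle, overlapped. With crude MCHM at 500 mg/kg the hepatocyte list, at 16.53 to 16.57 against 16.58 to 16.61, did not overlap vehicle. With MCHM, at 16.50 to 16.53 against 16.50 to 16.59, it did. All 7 hepatocyte genes were above the threshold in each group. The part of these markers in the results was not tested.

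The dose trend placed these changes across the series of doses. With MCHM, Ehhadh (0.09 per step of dose rank), Eci1 (0.09) and Mecr (0.06) rose with limma adjusted p of 0.00562, 0.0166 and 0.0076, where 2.38% of all genes were called, 0.856% as risen and 1.53% as fallen. With crude MCHM the same 3 genes rose (0.07, 0.08 and 0.06; adjusted p = 0.0297, 0.00444 and 0.0126; 1.91% called, 1.38% as risen). With PPH Decr2 and Mecr rose (0.08 each, adjusted p of 0.00599 and 0.0175). Below the top doses limma called 0 members. Of all genes it called 0.0265% at 300 mg/kg MCHM, 0.0176% as risen and 0.00882% as fallen. At 300 mg/kg crude MCHM it called 1.01% of all genes, 0.877% as risen, and at 500 mg/kg PPH 0.0882%. In the mean of doses limma called 0 genes of any kind with MCHM or crude MCHM, where 1 and 7 members, and 716 and 972 genes in all, had an unadjusted p under 0.05.

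Some of the liver calls rested on single arrays. Ehhadh at 500 mg/kg MCHM was called in 5 of 9 fits with 1 array left out (lost without vehicle replicate 3 or 7 or treated replicate 41 or 42), Mecr in 1 (without treated replicate 43) and Eci1 in 0. In the MCHM trend all 3 were called in 29 of 29 such fits. Eci1 and Ehhadh at 500 mg/kg crude MCHM were called in 8 of 8, Decr2 in 5 (lost without vehicle replicate Crude_MCHM-105 or Crude_MCHM-106 or treated replicate Crude_MCHM-144) and Mecr in 1 (without vehicle replicate Crude_MCHM-104). At 1000 mg/kg PPH, Decr2 and Mecr were called in 9 of 9 and Eci1 in 1 (without vehicle replicate PPH-203). In the mean of PPH doses Decr2 and Mecr were each called in 21 of 25 fits, Decr2 being lost without vehicle replicate PPH-202, PPH-205, PPH-206 or PPH-208 and Mecr without PPH-202, PPH-203, PPH-206 or PPH-208. In the trends Ehhadh with crude MCHM was called in 21 of 27 fits, being lost without vehicle replicate Crude_MCHM-105, Crude_MCHM-106 or Crude_MCHM-108, 0.1 mg/kg replicate Crude_MCHM-110 or Crude_MCHM-114 or 500 mg/kg replicate Crude_MCHM-144, and Mecr with PPH in 24 of 25, being lost without 1000 mg/kg replicate PPH-236. The other trend calls in liver were kept in every such fit. With the beta-actin 5′ minus 3′ control of RNA integrity as a covariate, chosen after the data were seen, the PPH trend of Decr2 and Mecr, the crude MCHM trend of Ehhadh and the call of Eci1 at 1000 mg/kg PPH were lost. Other settings also ended calls: a further quantile normalization that of Decr2 in the mean of PPH doses and of Eci1 at 1000 mg/kg PPH, no filter that of Eci1 at 500 mg/kg MCHM, and a trend on log10 dose those of Eci1 with MCHM and of Ehhadh with crude MCHM.

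In kidney 4 members rose with PPH: Ehhadh, Decr1, Acadm and Ech1 at 1000 mg/kg, of 30 tested, where 2.03% of 11264 genes were called, 0.692% as risen and 1.34% as fallen. No member fell with PPH. The median change of the 30 members was 0.11, against -0.03 over all genes tested. With MCHM limma called no member of 31 at any dose (0.0177% of all genes were called at 500 mg/kg). With crude MCHM limma called 0 genes of any kind.

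Ehhadh lay at 10.09, 10.11, 10.09, 10.05 and 10.04 in the PPH vehicle kidneys and at 10.85, 10.49, 10.80 and 10.99 at 1000 mg/kg. The vehicle kidneys were close together and the treated kidneys all above them. The change was 0.71 ± 0.08 (SE), a 1.63-fold rise (limma adjusted p = 4.21e-05). The 3 kidneys at 500 mg/kg, at 10.44, 10.52 and 10.54, were also above every vehicle kidney, with a change of 0.42 that was not called (adjusted p = 0.184). At that dose limma called 0 genes, and a kidney of that dose was rich in fat cell markers, as given below. At 1, 10 and 100 mg/kg the means were 10.18, 10.17 and 10.13. The kidney change of Ehhadh with MCHM and crude MCHM at 500 mg/kg was 0.26 and 0.09, neither called.

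Decr1, the mitochondrial dienoyl-CoA reductase, lay at 10.89 ± 0.08 (SD, n = 5) in vehicle, the lowest array being at 10.81, and at 11.41, 11.38, 11.45 and 11.41 at 1000 mg/kg PPH. The groups were far apart, with a change of 0.52 ± 0.09 (SE), 1.44-fold (limma adjusted p = 0.00148). Between them stood the kidneys at 500 mg/kg, at 11.27, 11.33 and 11.27. Acadm, the medium-chain dehydrogenase, went from 12.04, 11.87, 11.82, 11.96 and 11.99 in vehicle to 12.17, 12.21, 12.18 and 12.30, groups that did not overlap. Its change was 0.28 ± 0.06 (SE), 1.21-fold (limma adjusted p = 0.0104), and it rose in the mean of all PPH doses as well, by 0.22 ± 0.04 (SE; limma adjusted p = 0.0451, where 0.124% of all genes were called). Ech1, the dienoyl-CoA isomerase of both organelles, went from 10.18, 10.00, 10.17, 10.03 and 10.20 to 10.48, 10.27, 10.45 and 10.44. Each treated kidney was above each vehicle kidney, and the change was 0.29 ± 0.06 (SE), 1.23-fold (limma adjusted p = 0.0129).

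In the PPH trend 7 of 30 members rose, where 1.58% of all genes were called and 0.453% as risen. They were Ehhadh (0.13 per step), Decr1 (0.10), Ech1 (0.06), Acadm (0.05), Hadha (0.05), Vnn1 (0.12) and Eci2 (0.05), with limma adjusted p of 1.71e-05, 0.000586, 0.00696, 0.0209, 0.0364, 0.0364 and 0.0416. Hadha, the alpha subunit of the trifunctional protein, lay at 9.75, 9.63, 9.93, 9.81 and 9.74 in vehicle, at 10.01 to 10.03 at 500 mg/kg and at 9.91, 9.98, 9.98 and 10.11 at 1000 mg/kg, where 1 treated kidney was below the highest vehicle kidney. Vnn1 lay at 9.68, 9.76, 10.05, 9.27 and 9.35 in vehicle and at 10.29, 10.16, 10.34 and 10.10 at 1000 mg/kg; those groups did not overlap, and the change of 0.60 ± 0.17 (SE) at that dose was not called (limma adjusted p = 0.063). The median PPH slope was 0.034 per step over the 14 mitochondrial members and 0.004 over the 7 peroxisomal members tested. Members are measured on the same arrays and are not independent, and a kidney at 500 mg/kg was rich in fat cell markers, as given below.

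**Figure D2:**
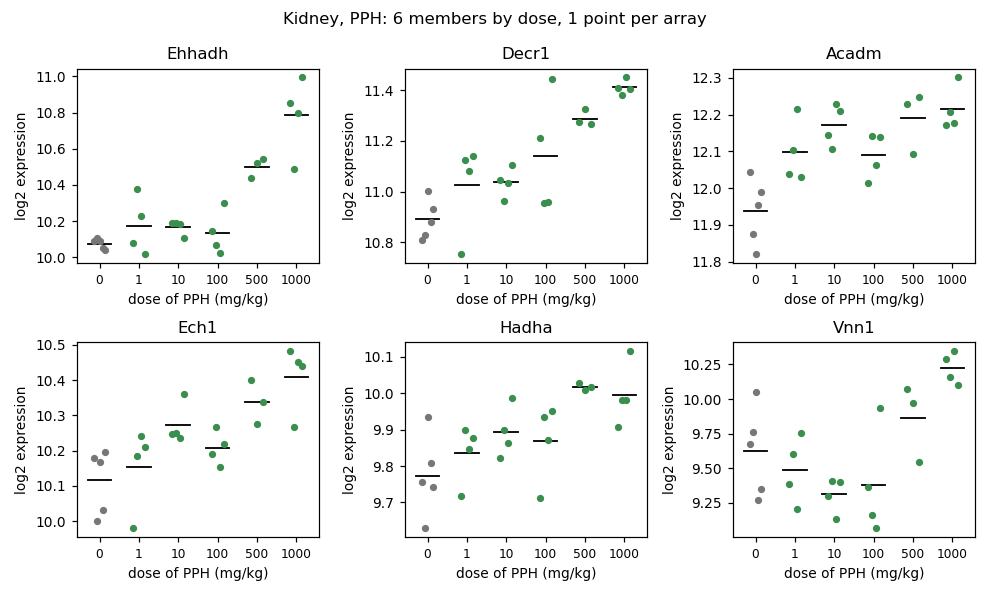
Log2 intensity (y axis) of Ehhadh, Decr1, Acadm, Ech1, Hadha and Vnn1 in kidney by PPH dose in mg/kg (x axis); points are arrays and bars group means. Ehhadh and Decr1 lie above all vehicle kidneys at 500 and 1000 mg/kg, and 1 Hadha array at 1000 mg/kg (9.91) lies below the highest vehicle array (9.93).

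Cell type markers were set beside these PPH results. The fat cell list, of which 7 of 8 genes were measured, summed to between 9.17 and 9.82 at 1000 mg/kg and between 9.08 and 10.32 in vehicle. The proximal tubule list summed to between 14.60 and 14.77 against 14.74 and 14.94, and the hepatocyte list to between 7.70 and 8.33 against 6.90 and 7.76. The macrophage list, with 4 of 5 genes measured, summed to between 7.65 and 7.92 at 1000 mg/kg and to at least 7.96 in every vehicle kidney, so that these groups did not overlap. 1 of the 3 kidneys at 500 mg/kg, replicate PPH-229, was rich in fat cell markers: its fat cell list summed to 11.39 and its brown fat list to 10.95, and its mitochondrial members averaged 0.34 above vehicle against 0.05 and 0.15 in the other 2. The part of these markers as a cause was not tested. With the fat cell marker mean as a covariate, added after the data were seen, Ehhadh, Decr1, Acadm and Ech1 kept their calls at 1000 mg/kg. The trend calls of Eci2, Hadha and Vnn1 and the call of Acadm in the mean of doses were lost. The beta-actin 5′ minus 3′ control was -2.44 at 1000 mg/kg and -2.70 in vehicle on average. With that control as a covariate, also added after the data were seen, Ehhadh, Decr1, Acadm and Ech1 kept their calls at 1000 mg/kg, and the trend kept 3 of 7. Leaving out each array in turn kept Ehhadh, Decr1 and Acadm at 1000 mg/kg in 9 of 9 fits and Ech1 in 7, its call being lost without treated replicate PPH-233 or PPH-236. The call of Ech1 was also lost when all chemicals were fitted together (limma adjusted p = 0.119). In the trend Ehhadh, Decr1 and Ech1 were kept in 24 of 24 fits, Acadm in 22 (lost without vehicle replicate PPH-205 or 500 mg/kg replicate PPH-232), Vnn1 in 14, Hadha in 12 and Eci2 in 8. Without PPH-229 the trend kept 4 of 7 calls, those of Hadha, Vnn1 and Eci2 being lost (limma adjusted p = 0.0593, 0.0741 and 0.0512), and that of Acadm in the mean of doses was lost too (0.0626). The trend call of Hadha was also lost with its probe sets averaged. The call of Acadm in the mean of PPH doses was kept in 8 of 24.

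With MCHM the 1 call on a member in kidney was on Cpt1a in the trend, which fell by 0.06 per step (SE 0.01, limma adjusted p = 0.0248), where 0.124% of all genes were called. Cpt1a lay at 10.19, 10.29, 10.22, 10.12 and 10.39 in vehicle, at 9.83, 10.28, 9.81 and 9.98 at 300 mg/kg and at 10.00, 10.01, 9.75 and 9.88 at 500 mg/kg. Every kidney at 500 mg/kg was below every vehicle kidney, with a change of -0.33 ± 0.08 (SE) that was not called (limma adjusted p = 0.113). Without the pair of kidneys rich in fat cell markers the slope was -0.05 and the call was lost (limma adjusted p = 0.177). It was also lost without vehicle replicate 4 or 8, 0.1 mg/kg replicate 10 or 12 or 500 mg/kg replicate 42. A further probe set of Cpt1a changed by -0.30 at 500 mg/kg.

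Those 2 kidneys set the highest values of several mitochondrial and regulatory members. Cpt1b, the muscle and fat form of the outer transferase, lay at 6.54, 6.47, 10.84 and 6.99 at 300 mg/kg and at 6.11, 6.72, 9.63 and 6.64 at 500 mg/kg, against 5.83 to 7.39 in vehicle. Pdk4 lay at 6.26, 6.21, 10.56 and 6.05 and at 6.05, 6.14, 9.02 and 5.89. Angptl4 lay at 5.29, 5.31, 8.22 and 4.92 and at 4.92, 5.10, 6.89 and 4.77. In each gene the 1 high kidney of the dose was the one rich in fat cell markers, and the other 3 Cpt1b values of each dose lay inside the vehicle range. The mean changes at 300 mg/kg, 1.02 for Cpt1b, 0.98 for Pdk4 and 0.80 for Angptl4, came with no call. The fat cell markers of these kidneys summed to 13.94 and 12.97, and the brown fat list to 14.37 and 13.24, against 9.22 to 9.65 for the fat cell list in vehicle; skeletal muscle markers stayed between 5.00 and 5.50 in all kidneys. The fat cell list also reached 12.12 in a PPH kidney at 10 mg/kg, where Cpt1b ran up to 8.18, and 12.04 in a crude MCHM kidney at 1 mg/kg. Its part in the values of these members was not tested.

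**Figure D3:**
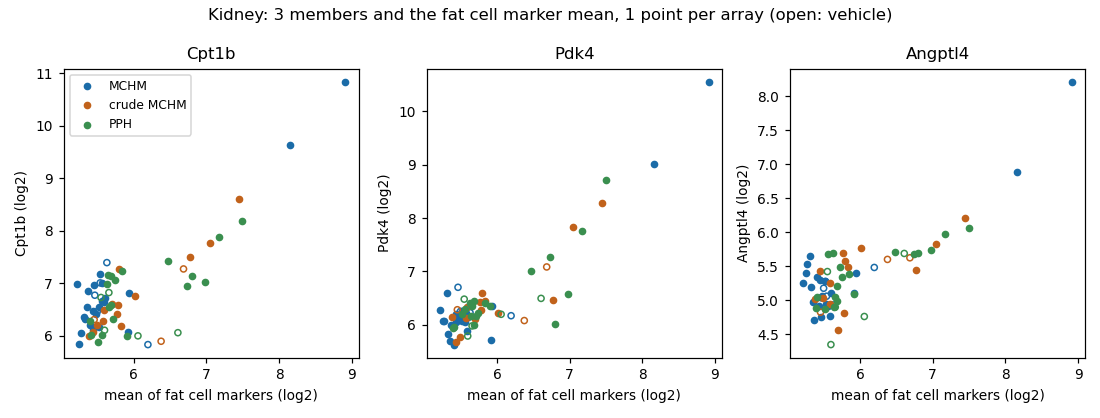
Log2 intensity (y axis) of Cpt1b, Pdk4 and Angptl4 against the mean log2 level of the fat cell markers (x axis) in the kidneys; each point is an array and open points are vehicle. The MCHM kidneys at 8.91 and 8.16 on the x axis hold the highest Cpt1b values, 10.84 and 9.63.

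Eci1, which rose in liver with all 3 chemicals, was not called in kidney. Its MCHM kidneys at 500 mg/kg lay at 11.10, 10.73, 11.65 and 10.79, each above the vehicle kidneys at 10.46 to 10.70, and the highest was again the kidney rich in fat cell markers (change 0.51, adjusted p = 0.325). With 500 mg/kg crude MCHM it was at 11.29, 10.87 and 11.06 against 10.87, 10.49 and 10.48 (change 0.46, adjusted p = 0.29), and with 1000 mg/kg PPH at 11.03 to 11.57 against 10.80 to 11.02 (change 0.40, adjusted p = 0.128). In that crude MCHM comparison 7 of 30 members and 1406 of 11216 genes had an unadjusted p under 0.05. Among them was Pecr, which lay at 11.12, 11.31 and 11.09 against 11.40, 11.60 and 11.66 in vehicle, a change of -0.38 ± 0.12 (SE; limma adjusted p = 0.29). Kidney groups of crude MCHM held 2 or 3 arrays, the fewest of any set, and the fat cell list reached 11.26 at 500 mg/kg.

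**Figure D4:**
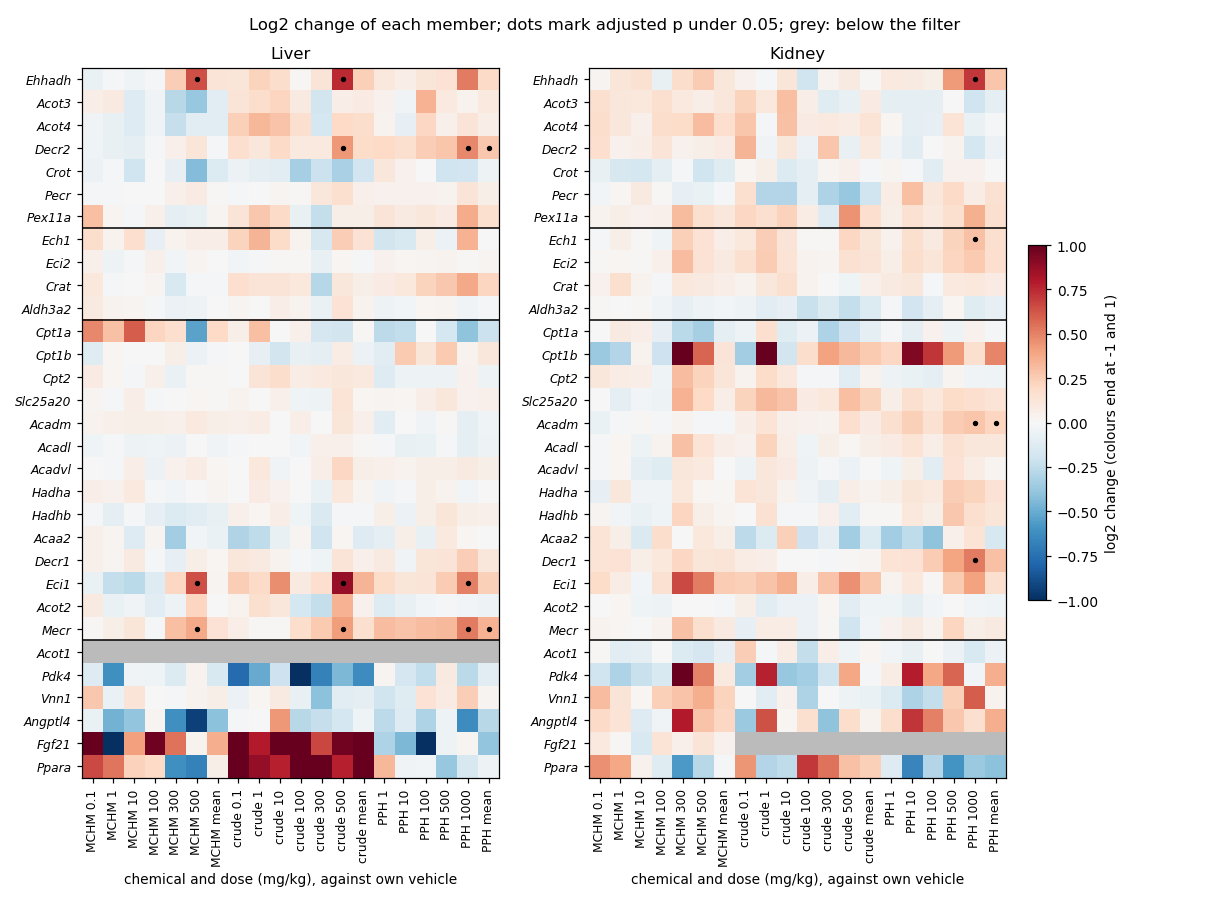
Log2 change against the vehicle of the same chemical for the 31 members measured (rows, by role) at each dose and in the mean of doses (columns), in liver and kidney. Colours end at -1 and 1, dots mark an adjusted p under 0.05 and grey marks genes below the low-signal filter; dots fall on Eci1 and Mecr at the top dose of all 3 chemicals in liver and on Ehhadh, Decr1, Acadm and Ech1 at 1000 mg/kg PPH in kidney.

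Averaged over all doses of the 3 chemicals, the members that led in liver were Mecr (0.22), Eci1 (0.20) and Ehhadh (0.18), each above 0 with every chemical. Pex11a (0.08), Ech1 (0.07), Decr1 (0.06), Acadvl (0.05), Pecr (0.04), Slc25a20 (0.03) and Hadha (0.02) were smaller and also above 0 with each. Decr2 averaged 0.15, with values from -0.01 for MCHM to 0.27 for PPH. Pdk4 (-0.30), Angptl4 (-0.24) and Crot (-0.12) were below 0 with every chemical. Fgf21 (0.37) and Ppara (0.35) had higher averages but ran from -0.40 to 1.13 and from -0.05 to 1.04 between chemicals. In kidney Eci1 (0.23), Decr1 (0.15), Pex11a (0.15), Slc25a20 (0.14), Ehhadh (0.13), Eci2 (0.13) and Ech1 (0.12) were above 0 with every chemical. So were Cpt1b (0.29) and Angptl4 (0.20). All kidney averages hold the kidneys rich in fat cell markers. In MCHM replicates 36 and 42 the mitochondrial members averaged 0.98 and 0.63 above vehicle. The members of several compartments averaged 0.51 and 0.31 there, and the peroxisomal members 0.21 and 0.17. The part of these kidneys in the averages was not tested. Smaller averages of one sign were those of Acadl (0.08), Hadha (0.07), Crat (0.07), Hadhb (0.05) and Acadvl (0.01). Aldh3a2 (-0.08), Cpt1a (-0.07), Crot (-0.04) and Acot2 (-0.03) were below 0 with every chemical. These averages are descriptions without a test of their own.

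The median changes of peroxisomal and mitochondrial members differed by at most 0.12 at the top doses and in the mean of doses, and no test was run on them. In liver the median change of the 7 peroxisomal members measured, less that of the 14 mitochondrial ones, was -0.09 at 500 mg/kg MCHM, 0.04 at 500 mg/kg crude MCHM and 0.09 at 1000 mg/kg PPH. Among single vehicle livers the same difference varied with an SD of 0.07, 0.18 and 0.08 (n = 5, 4 and 5), which is not the error of a difference between groups. In kidney it was -0.04, 0.07 and -0.11, with a vehicle SD of 0.04, 0.12 and 0.09 (n = 5, 3 and 5). Without the MCHM kidney rich in fat cell markers (replicate 42) the value of -0.04 became 0.07, and without crude MCHM vehicle replicate Crude_MCHM-106 or treated replicate Crude_MCHM-139 that of 0.07 became -0.05 or -0.03. By mean of doses it lay between -0.03 and 0.07 in liver and between -0.12 and 0.06 in kidney, where the crude MCHM value of 0.06 was -0.08 without vehicle replicate Crude_MCHM-106. In each top-dose liver comparison 2 of 14 mitochondrial members rose, Eci1 and Mecr, and 1, 2 and 1 of 7 peroxisomal members did. Of all genes tested 0.291%, 0.517% and 1.22% rose with MCHM, crude MCHM and PPH. With the probe sets of Eci1 averaged none of these Eci1 calls was kept, and Mecr is not an enzyme of breakdown, as given above. With 500 mg/kg crude MCHM the mean change of the mitochondrial members was 0.14 to 0.20 in each of the 4 livers. It lay above the vehicle livers at -0.05 to 0.07. That mean holds Eci1 (0.87) and Mecr (0.42), both called at this dose. The mean of the peroxisomal members, 0.04 to 0.33, overlapped its vehicle range of -0.17 to 0.28. In liver the mitochondrial mean overlapped vehicle at 500 mg/kg MCHM (-0.11 to 0.21 against -0.05 to 0.10). It also did at 1000 mg/kg PPH (-0.01 to 0.12 against -0.16 to 0.16). In kidney it was apart at 1000 mg/kg PPH (0.10 to 0.22 against -0.08 to 0.06) and overlapped at 500 mg/kg MCHM and crude MCHM.

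**Figure D5:**
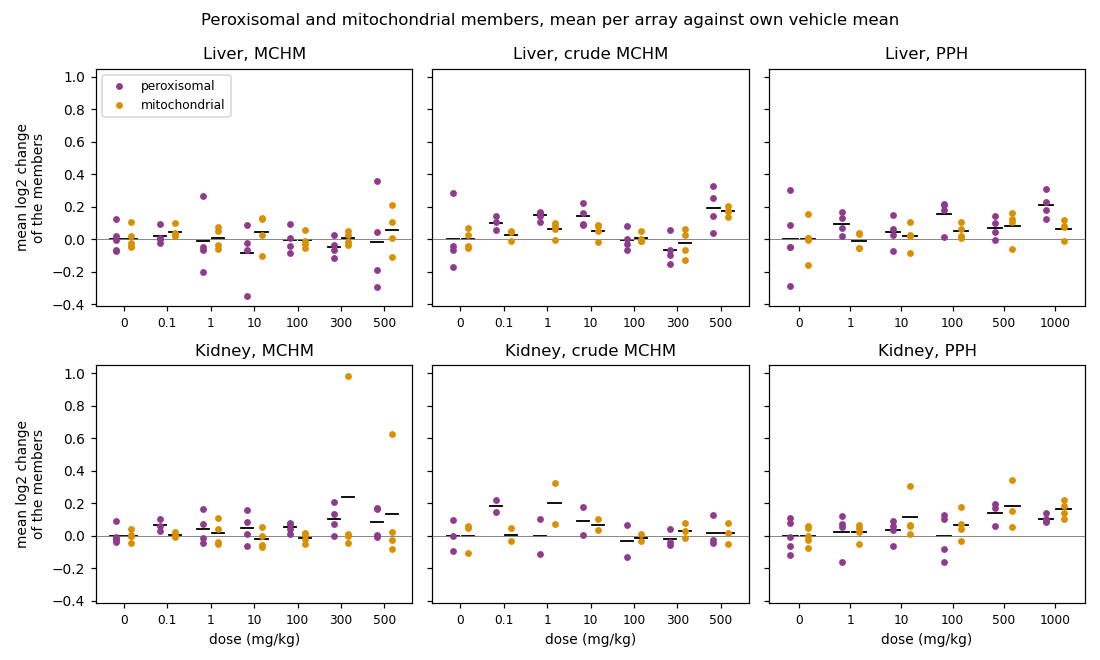
Mean log2 change per array of the peroxisomal members (7 measured) and the mitochondrial members (14) against their vehicle mean (y axis) by dose in mg/kg (x axis), for each chemical and tissue; points are arrays. The MCHM kidneys at 0.98 and 0.63 are the ones rich in fat cell markers. At 500 mg/kg crude MCHM in liver the mitochondrial members lie at 0.14 to 0.20, above their vehicle arrays at -0.05 to 0.07. That mean holds Eci1 and Mecr, both called at that dose.

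Liver and kidney differed in 3 members' response to a chemical. At 1000 mg/kg PPH the response of Acadm was lower in liver, the liver response less the kidney response being -0.38 (SE 0.07, 95% interval -0.53 to -0.23, limma adjusted p = 0.00531). Its livers lay at 12.23 to 12.29 against 12.28 to 12.44 in vehicle, and its kidneys lay above their vehicle as given above. Decr2 went the other way, with a liver response higher by 0.66 (SE 0.14, interval 0.37 to 0.94, limma adjusted p = 0.0123); its kidneys lay at 10.49 to 10.80 against 10.68 to 11.08 in vehicle. For these calls 0.748% of 11897 genes were called. In the mean of PPH doses Acadm differed again, by -0.26 (adjusted p = 0.0352, 0.118% called). The response of Pecr to 500 mg/kg crude MCHM was higher in liver by 0.54 (SE 0.11, limma adjusted p = 0.0345, 0.0587% called). Its livers lay at 12.37 to 12.61 against 12.31 to 12.40 in vehicle, and its kidneys lay below their vehicle as given above. For MCHM at 500 mg/kg limma called no member (0.0759% of genes called), and 4 of 31 members and 970 of 11861 genes had an unadjusted p under 0.05. Leaving out each array in turn kept both calls at 1000 mg/kg PPH in 18 of 18 fits, Acadm in the mean of doses in 12 of 18 and Pecr in 5 of 14.

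The 3 chemicals were compared at each dose they share, in 14 pairs per tissue, as the difference of their responses to their own vehicles. limma called no member in any of the 28 comparisons. The largest background among them was 0.0956% of genes called, for PPH less crude MCHM at 500 mg/kg in kidney. In liver at 500 mg/kg, MCHM less crude MCHM gave -0.10 (interval -0.48 to 0.28) for Ehhadh, -0.23 (-0.61 to 0.16) for Eci1 and -0.05 (-0.30 to 0.21) for Mecr. For Decr2 it gave -0.31 (-0.57 to -0.06), with a limma adjusted p of 0.997 as for the other 3. PPH less MCHM at that dose gave -0.50 (-0.87 to -0.13) for Ehhadh and -0.39 (-0.76 to -0.02) for Eci1, and PPH less crude MCHM gave -0.60 (-0.98 to -0.22) for Ehhadh and -0.62 for Eci1, whose interval ended at -0.23, with limma adjusted p between 0.34 and 0.486. In kidney at 500 mg/kg, PPH less MCHM gave 0.27 (-0.01 to 0.56) for Decr1, 0.27 (0.06 to 0.47) for Acadm and 0.17 (-0.17 to 0.50) for Ehhadh. Both dosed groups hold a kidney rich in fat cell markers, as given above. Decr1 and Acadm were also lower in the PPH than in the MCHM vehicle kidneys, as given below. The part of these in the differences was not tested. A difference that was not called does not show the responses to be alike.

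The vehicle groups of the 3 sets differed in several of the 30 members tested in liver and 31 in kidney. In each comparison the share of members called was below that of all genes, so these differences are no trait of the members. They limit comparison of levels between sets. In liver, Eci1 (0.52), Acadvl (0.20) and Acadl (0.16) were higher in MCHM than in crude MCHM vehicle rats, with limma adjusted p of 0.00468, 0.0069 and 0.0281, where 11.4% of all genes were called. Between the PPH and MCHM vehicle livers (17.4% called), Acadvl (-0.19) and Eci1 (-0.38) were lower with PPH and Hadha (0.18) higher. In kidney 7 members, Hadha, Acadm, Acot1, Decr2, Cpt1a, Slc25a20 and Decr1, were lower in PPH than in MCHM vehicle rats, with differences of -0.23 to -0.39, where 31.5% of all genes were called. Hadha (0.28) and Acot1 (0.30) were higher in MCHM than in crude MCHM vehicle kidneys (22.3% called). With probe sets averaged the calls of Hadha in kidney were lost, at 0.02 (MCHM less crude MCHM) and -0.10 (PPH less MCHM). Leaving out each array kept Decr1 in 3 and Slc25a20 in 4 of 10 fits of PPH less MCHM in kidney, and Acot1 in 4 and Hadha in 7 of 8 of MCHM less crude MCHM. In liver it kept Acadl in 5 and Acadvl in 8 of 9 fits of MCHM less crude MCHM, and Hadha in 5 and Eci1 in 8 of 10 of PPH less MCHM. A further quantile normalization ended the calls of Decr1 in kidney and Acadl in liver, and a fit of only the 2 sets ended that of Decr1. Between PPH and crude MCHM vehicles limma called no member in either tissue, with 2.55% and 1.76% of genes called. The mean beta-actin 5′ minus 3′ control also differed by set, at -1.88 to -2.00 for MCHM, -1.22 to -1.33 for crude MCHM and -1.12 to -1.26 for PPH in liver, and at -1.26 to -1.36, -2.03 to -2.73 and -2.44 to -2.70 in kidney. Its part in these differences was not tested.

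Most members differed in level between the tissues of vehicle rats, as did most genes. The labels do not say whether both tissues were normalized together, and the sizes given here depend on it. Of 31 tested, 23 were higher in liver and 6 in kidney. Of all genes 86.3% were called, 37.7% as higher in liver and 48.6% as higher in kidney. Among those higher in liver were the secreted Angptl4 (5.23) and the kinase Pdk4 (3.29), and Aldh3a2 (2.99), Cpt2 (1.75), Acaa2 (1.41) and Crot (1.36). Ehhadh was higher in liver by 0.90, Eci1 by 0.59 and Mecr by 0.46. Higher in kidney, with liver less kidney below 0, were Crat (-1.47), Cpt1b (-1.30), Decr2 (-0.73), Acot3 (-0.57) and Acot2 (-0.44). Acot4 and Pex11a were not called. For Fgf21 and Acot1 the lower tissue lay at background, so that no size of the difference is given. Fgf21, counted as higher in liver, averaged 4.10 to 4.27 in the vehicle kidneys, under the threshold, and 7.32 to 9.29 in the vehicle livers. Acot1, counted as higher in kidney, lay at 10.16 to 11.01 over all kidneys and averaged 3.41 to 3.62 in the vehicle livers. With arrays left out in turn, the call of Ppara (0.55) was kept in 15 of 27 fits.

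Hadha and Hadhb, the 2 subunits of the trifunctional protein, are read from start sites 301 bases apart, head to head on the GRCr8 assembly, and their shared stretch is shown because the pair gave different calls. It lies at chr6:31907551-31907750, is written on the plus strand from RefSeq, and its capitals mark the closest match to the direct repeat, which differs by 3 letters.
Hadha and Hadhb: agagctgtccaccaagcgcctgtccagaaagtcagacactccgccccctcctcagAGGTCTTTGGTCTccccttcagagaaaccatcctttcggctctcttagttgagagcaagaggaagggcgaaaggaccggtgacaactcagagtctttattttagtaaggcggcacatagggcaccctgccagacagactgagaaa
At 1000 mg/kg PPH in kidney Hadha was at 0.22 (adjusted p = 0.0773) and Hadhb at 0.16 (adjusted p = 0.268). In the PPH trend Hadha was called and Hadhb was not, and the difference between the 2 genes was not tested.

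Other genes of the same biology, a list of 76 with 67 tested in liver and 65 in kidney, were read the same way, against the shares of all genes called given above. In liver 2 rose at 500 mg/kg MCHM, the peroxisome import protein Pex14 (0.38) and the fatty acid omega-hydroxylase Cyp4a1 (0.69), with limma adjusted p of 0.00499 and 0.0348. With 500 mg/kg crude MCHM it was Cyp4a1 (0.79, adjusted p = 0.00989), and at 300 mg/kg the malic enzyme Me1 (0.60, adjusted p = 0.0402). The peroxin Pex19 rose at 500 mg/kg PPH (0.41, adjusted p = 0.0146). At 1000 mg/kg PPH 5 rose: Me1 (0.80), the bile acid and fatty acid ligase Slc27a5 (0.42), the fatty acid translocase Cd36 (0.65), Pex19 again (0.29) and the thioesterase Acot13 (0.35), with adjusted p from 0.0107 to 0.0478. In kidney at 1000 mg/kg PPH 5 rose: the acyl-CoA ligase Acsl3 (0.39), the omega-hydroxylase Cyp4a3 (0.40), the very-long-chain ligase Slc27a2 (0.24), the dehydrogenase Acad11 (0.27) and the racemase Amacr (0.35), with adjusted p from 0.00511 to 0.0436. No gene of the list fell at a dose, and in the trends 1 did, the uncoupling protein Ucp2 in PPH livers (-0.05 per step). Trend rises in liver were those of Pex14 and Cyp4a1 with MCHM and of Me1, Pex7 and Cyp4a1 with crude MCHM. With PPH they were those of Pex19, Me1 and Acot13. In kidney Cyp4a1 rose in the MCHM trend (0.09 per step, limma adjusted p = 0.0475), and Acsl3, Cyp4a3 and Acad11 in that of PPH. Acot13 (0.30) and the peroxin Pex11g (0.21) rose in the mean of PPH doses in liver.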

How the data were processed

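The values are log2 intensities, deposited for 31099 probe sets on 151 arrays of the Affymetrix Rat Genome array; the authors made them with RMA, per the submitters' processing notes, in a version not given in the sources used here. Array medians lay between 5.215 and 5.376, and no read depth applies: precision comes from the number of arrays. Probe sets were named from the platform annotation, 20832 with 1 gene, 436 with several and 9831 unnamed. The members and all lists were chosen with earlier results of these data known. The column left out correlated with the other kidneys at 0.401, and at 0.952 when moved by 1 row.

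Each tissue and chemical was fitted alone with limma 3.58.1 in R 4.3.3 (lmFit and eBayes), which made 6 fits, on genes above the 40th percentile of the tissue's values on at least 3 arrays, with Benjamini-Hochberg adjustment over all genes tested. Chemicals and vehicles were compared in 1 fit per tissue, tissues in fits of both. Scripts were tested on simulated data. All members are named, with full statistics where called and otherwise for at most 4 members per comparison. The alternatives were the filter, the probe sets, quantile normalization, 1 joint fit, array weights, log10 dose, each array left out and, after the data were seen, covariates and doubted arrays.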

Additional observations from a re-analysis of the deposited data

Results flagged for a closer look

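For each member called with a chemical, the vehicle and the top-dose arrays were searched for an array far from the others, 36 groups of values in all, of which chance flags about 1 in 20. Decr2 at 500 mg/kg crude MCHM in liver had 1 array at 10.59, below the others at 10.72 to 10.73. Ehhadh in the crude MCHM vehicle livers had 1 array at 11.25, above the others at 10.68 to 10.76. Ehhadh at 500 mg/kg crude MCHM in liver had 1 array at 11.81, above the others at 11.51 to 11.55.

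The response of 3 members differed between liver and kidney by a test of the difference itself (limma, adjusted over all genes). For Pecr at 500 mg/kg crude MCHM, liver less kidney was 0.54. For Acadm it was -0.38 at 1000 mg/kg PPH and -0.26 in the mean of PPH doses. For Decr2 at 1000 mg/kg PPH it was 0.66.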

How the results depend on the processing

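No called result turned its direction under any alternative tried. Counts of called members moved over 1.5 times as follows. The kidney MCHM trend (1) was 2 with all chemicals in 1 fit, and 0 with the actin or the fat cell marker covariate, log10 dose, the shifted array put back, or without the 2 kidneys rich in fat cell markers. The kidney PPH mean of doses (1) was 0 in 1 fit, with either covariate, quantile normalization or no filter, and 2 with array weights. The kidney PPH trend (7) was 4 in 1 fit, 3 with the actin and 4 with the fat covariate. The crude MCHM 500 mg/kg count was 1 in place of 0 with array weights in kidney. In liver, PPH at 500 mg/kg gave 1 in place of 0 in 1 fit, the PPH mean 1 in place of 2 with quantile normalization, the PPH trend (2) 4 in 1 fit and 0 with the actin covariate, and the crude MCHM trend (3) 5 with array weights. The kidney PPH mean-of-doses difference of peroxisomal and mitochondrial medians was -0.0085 with all probe sets averaged. The causes were not tested.

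With each array left out, called members ranged from 0 to 2 at 500 mg/kg MCHM, 3 to 5 in its trend, 2 to 5 at 500 mg/kg crude MCHM, 0 to 2 in the PPH mean and 1 to 4 in the PPH trend in liver. In kidney they ranged from 0 to 1 in the MCHM trend and at 500 mg/kg crude MCHM, 0 to 2 in the PPH mean and 4 to 7 in the PPH trend. For tissue differences the range was 0 to 1 in the PPH mean and 0 to 2 at 500 mg/kg crude MCHM. For vehicles it was 1 to 3 (MCHM less crude MCHM), 1 to 4 (PPH less MCHM) and 0 to 1 (PPH less crude MCHM) in liver, and 0 to 3 and 0 to 1 for MCHM and PPH less crude MCHM in kidney. Peroxisomal less mitochondrial medians ranged from -0.171 to -0.0349 (MCHM 500 mg/kg) and 0.0744 to 0.189 (PPH 1000 mg/kg) in liver, and from -0.0789 to 0.0745 (MCHM 500 mg/kg), -0.0524 to 0.124 (crude MCHM 500 mg/kg) and -0.0762 to 0.108 (crude MCHM mean) in kidney.

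With the replicate number as a block, the tissue difference at 500 mg/kg crude MCHM gave 2 members in place of 1, and no other count of members moved over 1.5 times. The labels do not say that a liver and a kidney of 1 number are 1 rat. Deviations of same-numbered pairs correlated above 0.1 in 19 of 27, 7 of 16 and 15 of 22 pairs for MCHM, crude MCHM and PPH, and 55 of 57 livers correlated best with the kidney of their own number, as a hint from the data. Members near the low-signal threshold, such as Ppara and Fgf21 in kidney, are measured with the least precision.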
